A study of Saccharomyces cerevisiae with 4 samples.

Results

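The proteasome of budding yeast (Saccharomyces cerevisiae) was described here at the level of its transcripts. The rule that picks the genes goes by name. They are 14 genes of the core particle (SCL1, PRE1 to PRE10 and PUP1 to PUP3), 19 genes of the regulatory particle (the RPN subunits, RPT1 to RPT6 and SEM1) and RPN4. These 34 genes are rows of a table of 6678 open reading frames (ORFs). Total RNA was sequenced from 4 groups with 1 library each. The first group, starved pho23∆, was JMY047, the strain SEY6210 with its PHO23 gene replaced (pho23∆::HIS5), after 2 h in the nitrogen-free medium SD-N. The second, starved WT, was SEY6210 after the same shift. Growing pho23∆ and growing WT were the same strains in rich medium (YPD) at mid-log phase. Every group shares the SEY6210 background, a haploid of mating type alpha with the markers leu2-3,112, ura3-52 and his3-∆200, and also trp1-∆901, suc2-∆9 and lys2-801. The product of PHO23 belongs to Rpd3L, a histone deacetylase complex, and the study asked how its loss and nitrogen starvation bear on gene expression.

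The proteasome is the cell's main ATP-dependent protease for ubiquitin-tagged proteins. Its core particle is a barrel of stacked alpha and beta rings with the catalytic sites inside. Its regulatory particle, made of a base and a lid, binds ubiquitin chains, removes them, and unfolds and feeds in the substrate. In yeast most subunit genes share a promoter element, PACE (proteasome-associated control element), which is bound by the transcription factor Rpn4. Rpn4 is itself degraded by the proteasome, so that its level rises when proteasome capacity falls short. Under nitrogen starvation yeast also sends proteasomes to the vacuole by autophagy, a separate route that degrades whole assemblies.

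Values are RPKM, the reads of an ORF divided by its length and by the size of the library, which allows levels of different genes to be set side by side. Steps among the lowest values gave a rough estimate of 21800000 reads for starved pho23∆, 19600000 for starved WT, 27400000 for growing pho23∆ and 23000000 for growing WT. PHO23 itself had an RPKM of 0.0546 in starved pho23∆, 23.4 in starved WT, 0.13 in growing pho23∆ and 12.3 in growing WT. The starvation labels were checked on GAP1, the general amino acid permease, which stood at 2070 in starved pho23∆ and 2080 in starved WT, against 8.77 in growing pho23∆ and 6.61 in growing WT. Mating-type genes set the libraries apart. The 7 a-specific genes, which alpha cells normally keep silent, summed to 647 RPKM in starved pho23∆ and 2880 in starved WT, against 17.1 in growing pho23∆ and 58.1 in growing WT, and all 7 were higher in the starved library of each genotype. MFA1, an a-factor gene, stood at 406 and 1110 in the starved pho23∆ and WT libraries, against 3.51 and 9.31 in the growing ones, which goes against the alpha label. The 4 alpha-specific genes summed to 2980 in starved pho23∆, 19200 in starved WT, 2150 in growing pho23∆ and 8080 in growing WT, and all 4 were lower in pho23∆ than in WT in both conditions. These lists thus differ in every comparison made here, and their part in the values below was not tested. With 1 library a group no difference below has a replicate check, and no test between conditions was made. The 95% intervals in the text cover counting error only and rest on the estimated depth.

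PACE is printed first because it is the sequence that the subunit genes share. It was searched for as GGTGGCAAA on both strands from 250 bases before the start codon to 50 bases after it, in windows cut from the RefSeq R64 genome. A match was found in 27 of the 33 subunit genes, in 12 of 14 core and 15 of 19 regulatory ones, and in 72 of all 6001 promoters (1.2%). All 27 lay between -183 and -84 from the start codon, with a median of -120, and 19 of them read in the direction of the gene. In the 29-base windows below the capitals mark the match, and the letters run 5′ to 3′ on the strand of the gene. They are shown for PRE3, RPN2 and RPT1, which had the highest starvation folds in WT among these genes, and for RPN9, the lowest in WT. RPN5 is shown because its match also lies in the promoter of the neighbouring NOP14. The windows are PRE3 at chrX:435035-435063 (plus strand), RPN2 at chrIX:220801-220829 (minus), RPT1 at chrXI:174048-174076 (plus), RPN9 at chrIV:1322086-1322114 (plus) and RPN5 at chrIV:190776-190804 (plus). In RPT1 the element reads on the opposite strand, so that it appears as TTTGCCACC.
PRE3: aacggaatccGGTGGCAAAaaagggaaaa
RPN2: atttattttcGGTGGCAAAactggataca
RPT1: attaccgaatTTTGCCACCcgaaaactaa
RPN9: gctttcatccGGTGGCAAAagtaagaaca
RPN5: ttgacttttcGGTGGCAAAatgcaaaggg

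The 6 subunit genes without an exact match each held a form that differs by a single letter. RPN13, RPN10 and SEM1 held the substitution A7G, and PRE5, PUP1 and RPN8 held G1A, with positions counted from 1 at the first letter of GGTGGCAAA. The form with any seventh letter, GGTGGCNAA, was in 1.78% of all promoters. The other form, AGTGGCAAA, was looked for after these sequences had been read and was in 0.717%. GGTGGCNAA or AGTGGCAAA together matched all 33 subunit genes and 2.48% of all promoters. The windows show where the capitals depart from PACE, for RPN13 at chrXII:965656-965684 (minus), RPN10 at chrVIII:498968-498996 (plus) and SEM1 at chrIV:1202007-1202035 (plus). The others are PRE5 at chrXIII:901552-901580 (plus), PUP1 at chrXV:631891-631919 (minus) and RPN8 at chrXV:817085-817113 (minus).
RPN13: ttattcgcgaGGTGGCGAAagctttgcta
RPN10: caggcgggttTTCGCCACCggaatttaca
SEM1: tagtgctatgGGTGGCGAAcgtggtgggc
PRE5: cctattatagAGTGGCAAAattaaaaatt
PUP1: aacccggccgAGTGGCAAAataccaaaaa
RPN8: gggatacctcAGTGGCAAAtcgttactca

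The window of RPN4 held none of these forms. It held the heat shock element, searched for as TTCNNGAA or GAANNTTC, which 22.6% of all promoters and 6 of the subunit genes also hold. Both forms overlap just before the start codon of RPN4, with first bases at -21 and -16, and the capitals in the window chrIV:416699-416748 (minus) mark them.
RPN4: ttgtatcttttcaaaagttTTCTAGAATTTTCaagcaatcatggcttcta
The elements TTANTAA (Yap1), AGGGG (stress response) and TCCGNGGA (Pdr1 and Pdr3) were not matched in the RPN4 window. They were in 10, 8 and 1 of the 33 subunit genes, against 17.9%, 21.6% and 1.22% of all promoters. GGCGGC, the core of the URS1 element through which Ume6 recruits Rpd3L, was in 2 subunit genes against 5.13% of promoters. Matches are descriptions of sequence and not shown binding sites.

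Subunit transcripts were abundant in every library. The 33 genes had a median RPKM of 275 in starved pho23∆, 272 in starved WT, 197 in growing pho23∆ and 176 in growing WT. All 33 lay in the top 25% of ORFs in starved pho23∆, and 32 did in each of the other 3 libraries. Their sum made up 0.96% of the summed RPKM in starved pho23∆, 1.06% in starved WT, 0.624% in growing pho23∆ and 0.567% in growing WT. Cytosolic ribosomal protein genes move the base of that share, since they held 20.7%, 8.4%, 38.6% and 39.4% of the sum in the same order. With these 137 genes left out, the subunits held 1.21%, 1.15%, 1.02% and 0.936%. RPKM is relative to the library, so a change in RNA per cell cannot be told apart from a change in these genes.

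**Figure D1:**
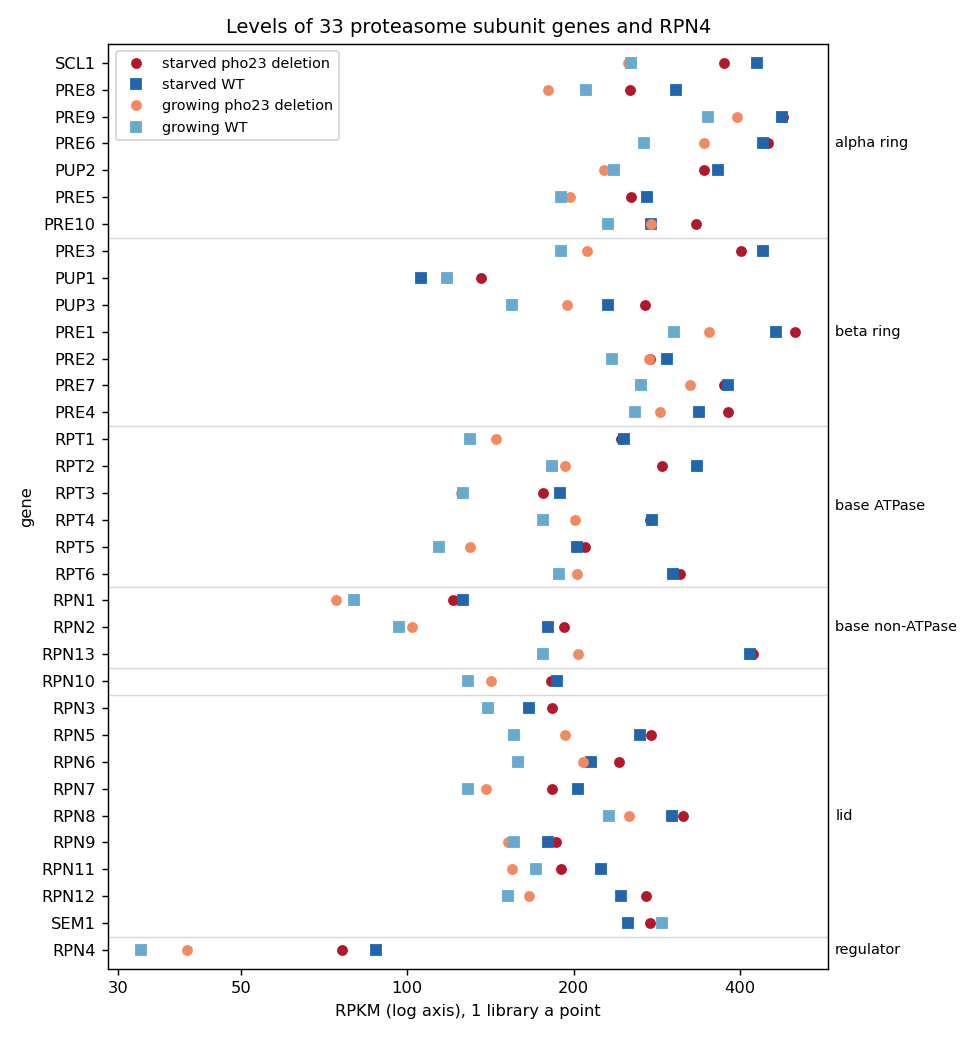
RPKM of the 33 subunit genes and RPN4 in each library, on a log axis, with 1 point a library and the genes ordered by their place in the complex. PUP1 stands left of the other core genes, RPN1 left of the other regulatory genes, and RPN4 left of all subunits.

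The alpha ring gates the barrel. Its 7 genes spanned 253 to 479 RPKM in starved pho23∆ and 272 to 476 in starved WT, against 180 to 396 in growing pho23∆ and 190 to 350 in growing WT. PRE9, whose protein is the alpha subunit that yeast can live without, was the highest of them in all 4 libraries. The beta ring carries the catalytic sites and was wider, because of PUP1. PUP1 (YOR157C, chromosome XV, 630966 to 631751, R64), which encodes the trypsin-like catalytic subunit, had 136 RPKM in starved pho23∆, 106 in starved WT, and 118 in both growing pho23∆ and growing WT. The median of its ring was 374, 338, 274 and 235 in the same libraries, so PUP1 was the lowest of the 14 core genes in each. The other catalytic genes were PRE3, for the caspase-like site, at 402, 440, 212 and 190 RPKM, and PRE2, for the chymotrypsin-like site, at 275, 295, 274 and 235. PRE1 (YER012W, chromosome V, 177835 to 178431), a non-catalytic beta subunit, was the highest of the beta ring at 504, 465, 352 and 304.

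Regulatory genes stood lower than core genes. The median over the 14 core genes was 1.48 times that over the 19 regulatory genes in starved pho23∆ (359 against 242 RPKM) and 1.57 times in starved WT (352 against 224). The ratio was 1.69 in growing pho23∆ (262 against 155) and 1.52 in growing WT (236 against 156). Core ORFs are short, at 597 to 867 coding bases (median 762), while regulatory ORFs run from 270 to 2982 (median 1290). Across the 33 genes, coding length and log2 RPKM in growing WT were correlated at r = -0.69 (Pearson) and rho = -0.64 (Spearman). Over the 4842 ORFs of known length whose RPKM reached 10 both were -0.41, so that length moves with level in general. These points come from 1 library, and the part of length in the gap between the particles was not tested.

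Within the regulatory particle RPN1, the large scaffold of the base that docks ubiquitin shuttles, was the lowest in every library, at 121, 126, 74.4 and 80.1 RPKM. RPN13, a ubiquitin receptor, was the highest in both starved libraries, at 423 in starved pho23∆ and 418 in starved WT. SEM1, the smallest lid protein, was the highest in both growing libraries at 289. The 6 RPT genes, for the ATPase ring that unfolds substrates, kept within 1.62 to 1.77 times of each other in every library. RPN4 (YDL020C, chromosome IV, 415113 to 416708) was below every subunit gene in each library, at 76.1 in starved pho23∆, 87.8 in starved WT, 40 in growing pho23∆ and 33 in growing WT. The order of the subunits was shared between genotypes, with a Pearson r of log2 RPKM of 0.96 starved and 0.97 growing (n = 33 genes). Between starved and growing libraries it was 0.89 in pho23∆ and 0.82 in WT.

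Starvation was compared with growth within each genotype. Nearly every subunit gene had a higher RPKM after 2 h in SD-N, by a modest and rather even amount. Fold changes are log2((RPKM + 1)/(RPKM + 1)). Over the 33 genes the median log2 fold was 0.45 in pho23∆, with 32 above 0, and 0.58 in WT, with 31 above 0. With median-of-ratios scaling 23 and 19 of the 33 were above 0, and with equal sums all 33 were in both genotypes. The ORFs as a whole were also higher on this scale. The median over all eligible ORFs, whose RPKM reached 10 in either library, was 0.34 in pho23∆ (n = 5863) and 0.53 in WT (n = 5956). The subunit median therefore stood above the general one by 0.11 in pho23∆ and 0.05 in WT, and 23 and 19 of the 33 genes lay above it. All 34 genes were eligible in each comparison.

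At 1.5-fold or more, 9 subunit genes were higher in starved pho23∆ than in growing pho23∆, against 37.7% of all eligible ORFs, and none was lower, against 17.4%. At 2-fold the count was 1 higher, RPN13, against 22.4%, and none lower, against 8.77%. In starved WT, 16 subunit genes passed 1.5-fold over growing WT, against 48.2% of all ORFs, and none was lower, against 19%. At 2-fold 2 were higher, RPN13 and PRE3, against 32.7%, and none was lower, against 13.3%. The share of subunits at 1.5-fold or more, 27.3% in pho23∆ and 48.5% in WT, was thus below the background in pho23∆ and near it in WT, and is not a result about the proteasome. Their folds kept to a narrow range, with an interquartile range of 0.31 in pho23∆ and 0.32 in WT, beside 1.19 and 1.54 over all eligible ORFs. The 137 cytosolic ribosomal protein genes also had narrow ranges, of 0.30 and 0.42, so this is not particular to the proteasome.

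The scale of these folds depends on how libraries are brought together. Ribosomal protein genes take a smaller share of the starved than of the growing libraries, and their part in this was not tested. When libraries were scaled by the median of ratios, which sets the median over all ORFs to 0.00, the subunit medians became 0.11 in pho23∆ and 0.05 in WT. Their excess over the general median lay between 0.10 and 0.18 in pho23∆ and between 0.03 and 0.09 in WT in every setting tried. A scaling shifts both medians nearly alike, so it could change this excess only a little. PUP1 and SEM1, at -0.15 and -0.20 in WT, were at 0.16 and 0.11 with equal sums. They were lower with median of ratios (-0.68 and -0.73), upper quartile (-0.43 and -0.49) and equal sums without ribosomal proteins (-0.43 and -0.48).

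**Figure D2:**
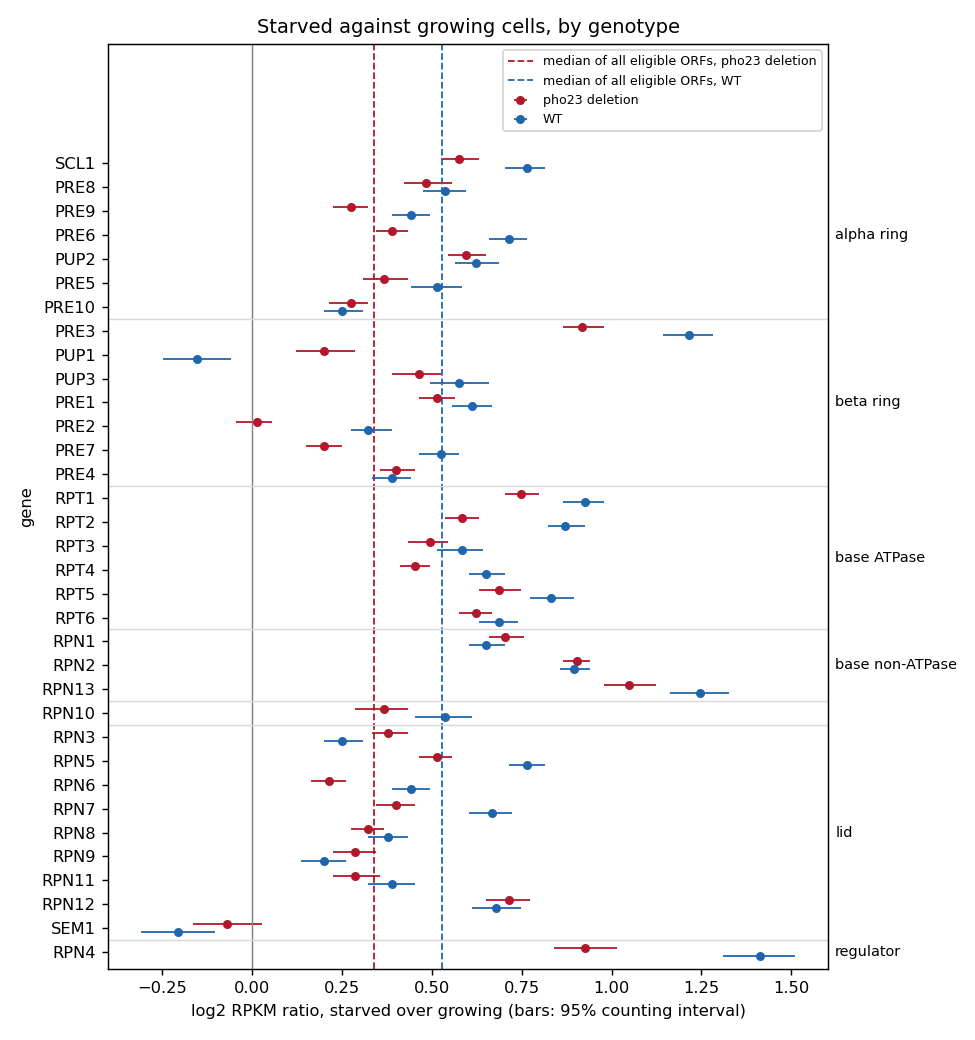
Log2 ratio of RPKM, starved over growing, for each subunit gene and RPN4 in the pho23 deletion (red) and in WT (blue). Bars are 95% counting intervals from estimated reads, and dashed lines are the medians over all eligible ORFs (0.34 and 0.53). PRE3, RPN2 and RPN13 stand right of both lines, and PUP1 and SEM1 lie left of them.

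The alpha ring had median folds of 0.39 in pho23∆ and 0.53 in WT, with all 7 genes above 0 in each. The highest were PUP2 at 0.60 in pho23∆ and SCL1 at 0.76 in WT, and PRE10 was the lowest in both, at 0.27 and 0.25. SCL1 (YGL011C), an alpha subunit, had 375 RPKM in starved pho23∆ and 251 in growing pho23∆, and 430 in starved WT and 254 in growing WT. PRE9, PRE6, PRE8 and PRE5 lay between 0.27 and 0.49 in pho23∆ and between 0.44 and 0.71 in WT. Folds of the alpha genes thus lay close to the general median on both sides.

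The beta ring held the extremes of the core particle, and its catalytic genes did not move together. PRE3 (YJL001W, chromosome X, 435163 to 435926) had 402 RPKM in starved pho23∆ against 212 in growing pho23∆, a ratio of 1.89 (1.82 to 1.97). In starved WT it had 440 against 190 in growing WT, a ratio of 2.32 (2.21 to 2.43). Its log2 folds of 0.92 and 1.21 were the highest of the core in both genotypes. PRE2 had log2 folds of 0.01 in pho23∆ and 0.33 in WT. PUP1 was 1.15 times as high in starved as in growing pho23∆ (1.09 to 1.22) and 0.899 times as high in starved as in growing WT (0.843 to 0.960). The 3 catalytic genes therefore spanned 0.01 to 0.92 in pho23∆ and -0.15 to 1.21 in WT. The 4 other beta genes kept to 0.20 to 0.52 and 0.39 to 0.61, PRE1 being the highest of them at 0.52 and 0.61 and PUP3 next in WT at 0.57. PRE7 was at 0.20 and 0.52, and PRE4 at 0.40 and 0.39.

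The base had the highest median folds of the complex. Its 6 ATPase genes had a median of 0.60 in pho23∆ and 0.75 in WT, and each of them lay above the general median in both genotypes. RPT1 led with 0.75 in pho23∆ and 0.92 in WT. It had 244 RPKM in starved pho23∆ and 247 in starved WT, against 145 in growing pho23∆ and 130 in growing WT. The lowest were RPT4 at 0.45 in pho23∆ and RPT3 at 0.58 in WT. RPT2, RPT5 and RPT6 lay between 0.58 and 0.69 in pho23∆ and between 0.68 and 0.87 in WT.

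The 3 non-ATPase genes of the base had higher medians, 0.90 in pho23∆ and 0.89 in WT. RPN1, however, lay below the ATPase median of 0.75 in WT. RPN13 (YLR421C, chromosome XII, 965090 to 965560) had 423 RPKM in starved pho23∆ against 204 in growing pho23∆, a ratio of 2.07 (1.97 to 2.18). In starved WT it had 418 against 176 in growing WT, a ratio of 2.37 (2.24 to 2.51). Its log2 folds of 1.05 and 1.24 were the highest of all 33 genes. RPN2 (YIL075C), a scaffold that holds RPN13, was at 0.90 and 0.89 with 192 RPKM in starved pho23∆ and 180 in starved WT, against 102 in growing pho23∆ and 96.6 in growing WT. RPN1 was at 0.70 and 0.65. RPN10, another ubiquitin receptor and a link between base and lid, was at 0.36 and 0.53, close to the general median.

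Lid genes had medians of 0.32 in pho23∆ and 0.39 in WT. Only 4 of the 9 lay above the general median in pho23∆ and 3 in WT. RPN12 was the highest in pho23∆ at 0.71 and RPN5 in WT at 0.76, and both encode scaffold subunits. RPN11, the deubiquitinase, was at 0.29 and 0.39, and its partner RPN8 at 0.32 and 0.38. RPN7 was at 0.40 and 0.66, RPN6 at 0.21 and 0.44, RPN3 at 0.38 and 0.25, and RPN9 at 0.29 and 0.20. SEM1 (YDR363W-A, chromosome IV, 1202128 to 1202397) was the lowest of the complex in both genotypes. Its RPKM was 275 in starved pho23∆ and 251 in starved WT, against 289 in both growing pho23∆ and growing WT. The ratio of starved to growing was 0.953 in pho23∆ (0.893 to 1.02), which holds 1, and 0.868 in WT (0.808 to 0.932). The SEM1 protein also serves in a nuclear messenger RNA export complex.

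RPN4 transcript stood higher after starvation in both genotypes, and by more than nearly all its targets. Starved pho23∆ had 1.90 times the RPKM of growing pho23∆ (1.79 to 2.02), and starved WT had 2.66 times that of growing WT (2.48 to 2.85). Its log2 folds of 0.91 and 1.38 lay 0.57 and 0.85 above the medians over all eligible ORFs. Among the subunits, RPN13 and PRE3 had higher folds than RPN4 in pho23∆, at 1.05 and 0.92, and none did in WT. The WT value was 0.86 with median-of-ratios scaling and 1.70 with equal sums.

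Core and regulatory particle were then compared, since a shift of a whole library cancels between them. In pho23∆ the median starvation fold of the core was 0.39 and that of the regulatory particle 0.49, a core-minus-regulatory difference of -0.09. In WT the medians were 0.53 and 0.65, a difference of -0.12. The core range (0.01 to 0.92 in pho23∆, -0.15 to 1.21 in WT) lay within or close to the regulatory range (-0.07 to 1.05 and -0.20 to 1.24). A split of the regulatory particle was larger than that between the particles, with the ATPases at 0.60 and 0.75 and the lid at 0.32 and 0.39. Genes are not replicates, and no test was made of either difference.

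The genotypes were compared within each condition. In both conditions every subunit transcript differed between pho23∆ and WT by less than 1.5-fold. In starved cells the median log2 fold of starved pho23∆ over starved WT was 0.02, with 18 of 33 above 0, beside -0.04 over all 5976 eligible ORFs. No subunit gene was 1.5-fold higher, against 10.9% of ORFs, or 1.5-fold lower, against 10.9%. None passed 2-fold either way, against 5.3% of ORFs higher and 4.13% lower. In growing cells the median of growing pho23∆ over growing WT was 0.12, with 24 of 33 above 0, beside 0.07 over 5439 ORFs. Again none passed 1.5-fold, against 12.3% of ORFs higher and 4.73% lower, or 2-fold, against 3.95% and 2.08%. The cytosolic ribosomal protein genes stand in contrast in starved cells, with a median of 1.44 and all 137 at least 1.5-fold higher. In growing cells they had a median of -0.06, and none passed 1.5-fold either way.

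**Figure D3:**
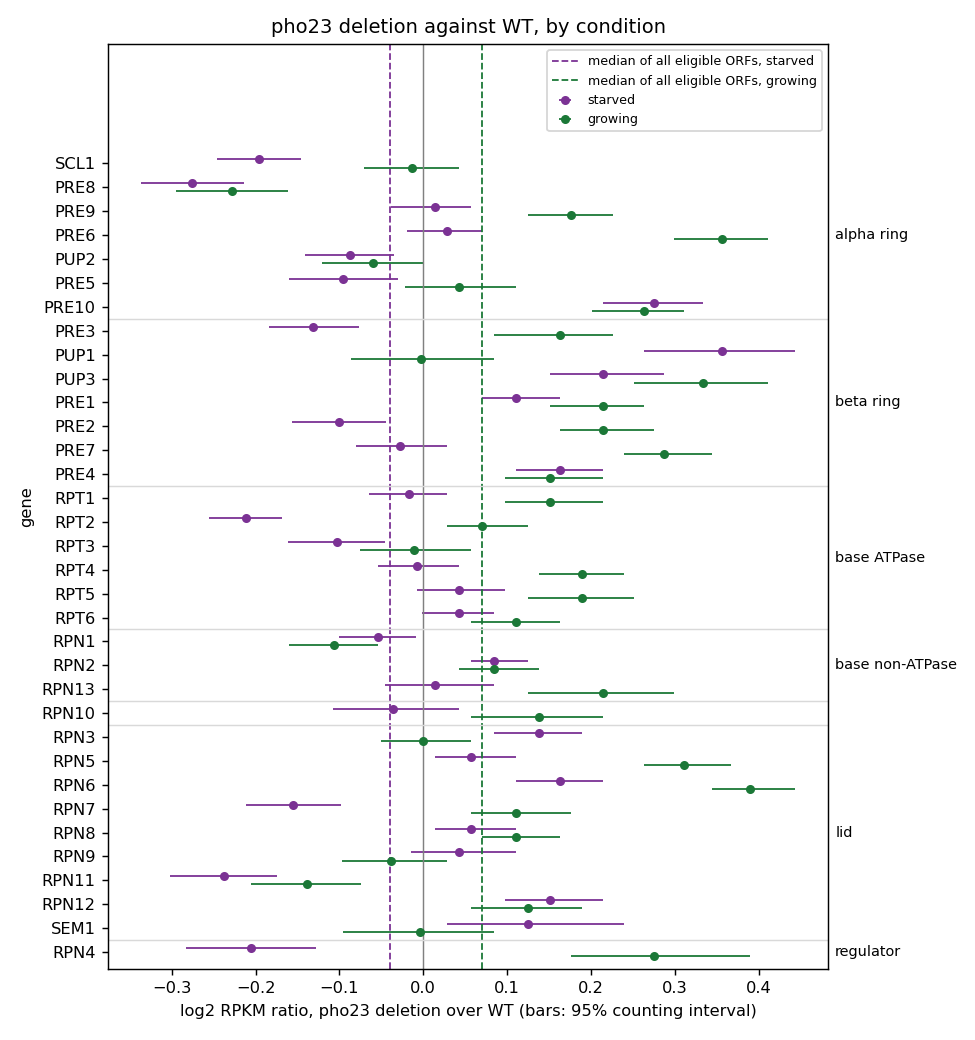
Log2 ratio of RPKM, pho23 deletion over WT, for each subunit gene and RPN4 in starved (purple) and growing (green) cells. Bars are 95% counting intervals, and dashed lines are the medians over all eligible ORFs (-0.04 and 0.07). All subunit values lie between -0.27 and 0.39.

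Single subunits differed between genotypes by more than counting error, though all by less than 1.5-fold. In starved cells the interval of the ratio lay above 1 for 12 genes, below 1 for 11 and held 1 for 10. In growing cells these numbers were 22, 4 and 7. How far separate cultures of 1 genotype differ is not known here, so these counts say nothing of genotype beyond these libraries. Intervals were not worked out for all ORFs, so neither these counts nor those below can be set beside a general share. Higher in pho23∆ in both conditions were 9 genes, namely PRE10, PUP3, PRE1, PRE4, RPN2, RPN5, RPN6, RPN8 and RPN12. Lower in both were 4, namely PRE8, PUP2, RPN1 and RPN11.

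PRE10, an alpha subunit, had 333 RPKM in starved pho23∆ and 276 in starved WT, and 276 in growing pho23∆ and 231 in growing WT (log2 folds of 0.27 and 0.26). RPN6, a lid scaffold, had 242 RPKM in starved pho23∆ and 215 in starved WT, and 208 in growing pho23∆ and 159 in growing WT (0.17 and 0.39). Its growing fold was the highest of the 33. PRE8, another alpha subunit, had 253 RPKM in starved pho23∆ and 306 in starved WT, and 180 in growing pho23∆ and 211 in growing WT. Its folds of -0.27 and -0.23 were the lowest in both conditions. RPN11 was at -0.24 starved and -0.14 growing. PUP1 had the highest starved fold, 0.35, with a growing fold of 0.00. Across the 33 genes the genotype folds of starved and growing cells, which share no library, were correlated at r = 0.44 (Pearson) and rho = 0.41 (Spearman).

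By subgroup, the beta ring had genotype medians of 0.12 starved and 0.21 growing, and the alpha ring of -0.09 and 0.05. The ATPases were at -0.01 and 0.13, the non-ATPase base genes at 0.02 and 0.08, and the lid at 0.06 and 0.11. Core minus regulatory was -0.05 in starved and 0.06 in growing cells. RPN4 was lower in starved pho23∆ than in starved WT, by a log2 fold of -0.20 (ratio 0.867, 0.822 to 0.915), and higher in growing pho23∆ than in growing WT, by 0.27 (ratio 1.21, 1.13 to 1.31). The starved value was -0.10 with median-of-ratios scaling and -0.35 with equal sums.

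The starvation folds of both genotypes were set against each other. The difference, pho23∆ minus WT, had a median of -0.11 over the 33 genes, with 24 below 0 and none at 1.5-fold or more. Over the 5785 ORFs eligible in both genotypes the median was -0.14, with 3674 ORFs below 0 and 1499 at 1.5-fold or more either way. Over the 137 ribosomal protein genes it was 1.49. The lowest values were those of PRE6, at -0.33, and of PRE2 and PRE7, both at -0.32. PUP1 was the highest at 0.35. The subunit median turned to 0.08 with median-of-ratios scaling, so its sign depends on the scale. RPN4 was at -0.47, and at -0.28 with median-of-ratios scaling and -0.62 with equal sums. Between both genotypes the starvation folds of the 33 genes had a Pearson r and a Spearman rho of 0.87. Over all 5785 ORFs these were 0.92 and 0.93.

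PACE was set beside the starvation folds. The 27 subunit genes with an exact match had a median of 0.49 in pho23∆ and 0.62 in WT, and the 6 with a changed letter 0.34 and 0.44. In WT the 27 ranged from 0.20 to 1.21 and 15 of them passed 1.5-fold (55.6%, near the 48.2% of all eligible ORFs). The 6 ranged from -0.20 to 1.24 and 1 of them did, RPN13. The lowest and the highest starvation fold of the complex, those of SEM1 and RPN13, thus belong to genes with the same A7G form. PUP1, the other gene with a WT fold below 0, carries the G1A form. Another 42 eligible ORFs with PACE had medians of 0.45 in pho23∆ and 0.47 in WT, close to the general medians, and spread from -1.94 to 3.31 in WT.

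**Figure D4:**
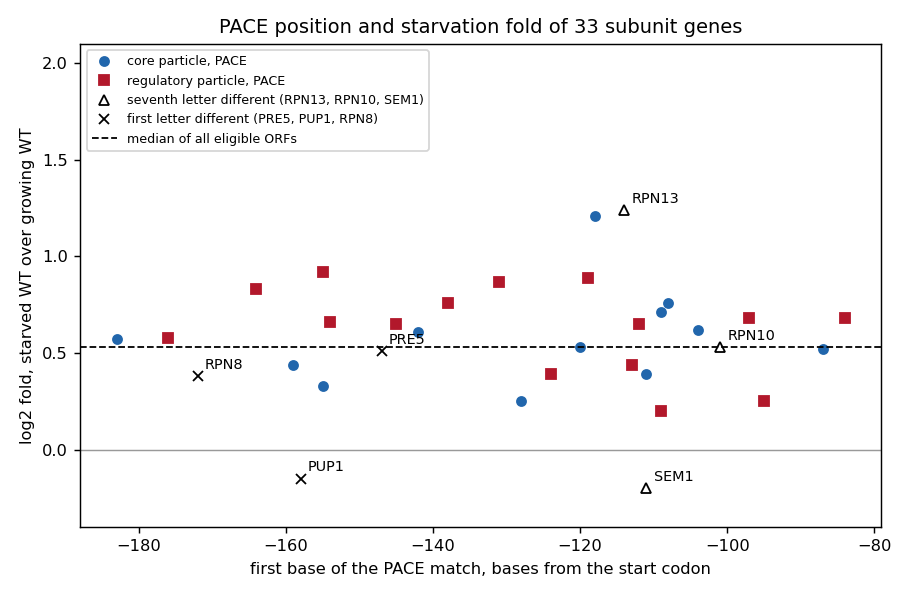
Position of the PACE match, in bases from the start codon, and log2 starvation fold in WT for the 33 subunit genes. Symbols mark the particle and the 2 changed forms of the element. RPN13 and SEM1, with the same form, are the highest and the lowest point at 1.24 and -0.20.

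Several matches lie between divergent genes and so belong to both. The 72 matching promoters held 60 places in the genome, and 7 genes outside the complex shared a match with a subunit. NOP14, for ribosome assembly, shares that of RPN5 printed above. Its starvation folds were -0.96 in pho23∆ and -1.94 in WT, where RPN5 was at 0.51 and 0.76. GCD1, a translation initiation factor gene, shares the match of RPT4 and was at -0.39 and -0.79, where RPT4 was at 0.45 and 0.65. In the other direction YPI1, which shares with RPN11, was at 1.38 and 2.18, and MPO1, which shares with SCL1, at 0.75 and 2.03. The other sharing genes had folds of the same sign as their subunit. ALG13, beside RPT6, was at 0.44 and 1.06, YTH1, beside RPN7, at 0.68 and 0.99, and YOL038C-A, beside PRE6, at 0.42 and 0.43. Of the 7 pairs, NOP14 with RPN5 and GCD1 with RPT4 had folds of opposite sign.

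Genes that work with the proteasome were described by lists drawn up by role. The 14 genes of assembly chaperones and bound factors had median starvation folds of 0.75 in pho23∆ and 0.90 in WT, beside 0.45 and 0.58 for the subunits. Of the 14, 10 and 9 lay above the subunit median. The counts at 1.5-fold or more were also 10 and 9 (71.4% and 64.3%, against 37.7% and 48.2% of all eligible ORFs), and none was 1.5-fold lower. NAS6, a base chaperone, was at 0.00 and 0.51. TMA17, which helps to assemble the ATPase ring under stress, had 341 RPKM in starved pho23∆ and 311 in starved WT, against 145 in growing pho23∆ and 65.1 in growing WT. Its log2 folds were 1.23 and 2.24. NAS2, a chaperone of the base, was at 1.33 and 1.77, FUB1 at 1.06 and 1.74, and ECM29, which steadies the joint between core and regulatory particle, at 1.0 and 1.20. In growing cells the list median of pho23∆ over WT was 0.30. TMA17 was the highest at 1.14, followed by ECM29 at 1.08, SPG5 at 0.71 and NAS6 at 0.61. RPN14 was the lowest at -0.49. At 1.5-fold or more 4 genes were higher, against 12.3% of all eligible ORFs, and none was lower, against 4.73%. The starved genotype median was 0.08, with ECM29 the highest at 0.88 and HSM3 the lowest at -0.69. There 3 genes were 1.5-fold higher and 2 were 1.5-fold lower, each against 10.9% of ORFs. ECM29 alone of the list carries an exact PACE, and its highest RPKM was 27.2.

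Ubiquitin itself is encoded by 4 genes. UBI4, the stress-responsive polyubiquitin gene, had 782 RPKM in starved pho23∆ and 969 in starved WT, against 205 in growing pho23∆ and 97.0 in growing WT. Its starvation folds were 1.93 and 3.31, its genotype fold -0.31 in starved and 1.07 in growing cells, and its promoter holds PACE. The fusion genes RPL40A, RPL40B and RPS31, which make ubiquitin joined to ribosomal proteins, lay between -1.65 and -0.85 in pho23∆ and between -3.30 and -2.26 in WT. RPL40A and RPL40B are near-identical and uncertain singly, and reads of the ubiquitin repeats may be shared among all 4 genes. The fusion genes also count among the 137 ribosomal protein genes. The 32 ubiquitin enzymes and shuttles had medians of 0.47 and 0.58, close to the subunits, with 15 and 16 at 1.5-fold or more (46.9% and 50%, against 37.7% and 48.2% of all eligible ORFs). RAD23, a ubiquitin shuttle, was the only member 1.5-fold lower, at -0.65 in WT, and was at -0.57 in pho23∆. Their interquartile ranges of 0.77 and 0.88 were wider. UBC5, a stress-induced conjugating enzyme, led with 501 RPKM in starved pho23∆ and 505 in starved WT, against 89.6 in growing pho23∆ and 52.0 in growing WT (2.47 and 3.25). HUL5, a proteasome-bound ligase, followed at 1.54 and 2.12.

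Regulators of RPN4 formed a list of 7. It had median starvation folds of 0.89 in pho23∆ and 1.09 in WT, with 4 and 6 genes at 1.5-fold or more (57.1% and 85.7%, against 37.7% and 48.2% of all eligible ORFs). RAD6, a ubiquitin-conjugating enzyme, was the lowest at -0.38 and -0.50. UBR2, MUB1 and RAD6 of this list are also among the ubiquitin enzymes. HSF1, the heat shock factor, was at 1.25 and 1.24, YAP1, the oxidative stress factor, at 0.99 and 1.44, and PDR3, a drug resistance factor, at 1.15 and 1.63. UBR2, the ligase that marks Rpn4 for degradation, was at 0.89 and 1.09. UBR2 stayed under an RPKM of 10 in every library, with 8.24 and 9.04 in starved pho23∆ and WT and 4.0 and 3.71 in the growing ones. Between genotypes PDR3 stood apart at -0.97 in starved cells, with 15.7 RPKM in starved pho23∆ and 31.7 in starved WT.

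Lists of the vacuolar route had higher median folds than the proteasome. The 8 vacuolar protease genes had median starvation folds of 1.87 in pho23∆ and 2.74 in WT, and the 17 core autophagy genes 1.17 and 1.73. PRB1, vacuolar proteinase B, had 736 RPKM in starved pho23∆ and 722 in starved WT, against 25.1 in growing pho23∆ and 20.1 in growing WT. ATG8, the lipid-linked protein of autophagosomes, was at 3.19 and 3.90. The 5 genes of proteasome autophagy had medians of 1.66 and 2.25. HSP42, a chaperone gene of this list, was at 2.93 and 4.2. The sorting nexin genes SNX41 and ATG20 were at 1.84 and 1.66 in pho23∆ and at 2.27 and 2.25 in WT. Which of these genes serve the degradation of proteasomes under nitrogen starvation was not tested. CUE5, a receptor that links ubiquitin to Atg8, was the lowest of the 5 at 0.57 and 0.89. In growing cells pho23∆ stood above WT in the autophagy list by a median of 0.85 and in the proteasome autophagy list by 0.60, beside 0.12 for the 33 subunits. In starved cells these medians were 0.09, 0.01 and 0.02.

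**Figure D5:**
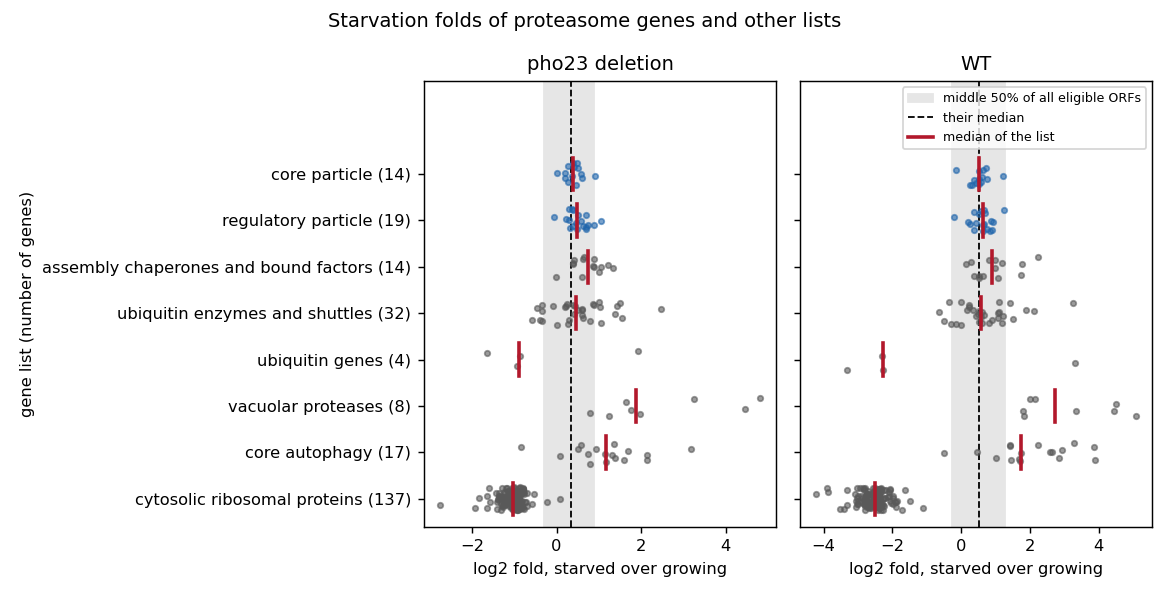
Log2 starvation folds in the pho23 deletion (left) and WT (right) for the genes of each list, with the list median as a red line. The grey band and the dashed line are the middle 50% and the median of all eligible ORFs. Core and regulatory particle genes sit within or close to the band. The median of the vacuolar proteases lies to its right and that of the ribosomal proteins to its left, though single genes of both lie inside it in the pho23 deletion.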

How the data were processed

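The authors deposited RPKM values per ORF for the 4 libraries. Per the submitters' processing notes, CASAVA 1.8.2 and Bowtie2 2.1.0 were used with the genome build sacCer3 (R64). How reads were counted, on which annotation and with or without strand is not stated in these sources, and values of ORFs that overlap are uncertain for that reason. RefSeq names, lengths and positions matched 5997 of 6678 ORFs.

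Folds were log2 ratios of the deposited RPKM after adding 1. ORFs whose RPKM reached 10 in either library of a comparison were eligible, and counts used 1.5-fold and 2-fold. Members of lists other than the 34 genes were counted at any RPKM. Reads were estimated from the step among the lowest values of RPKM times length in kb. With it, 36.2% to 43.5% of values under 100 reads came within 0.1 of a whole number, against 19.3% to 23.6% with a step 3% off, so the depth is rough. Ratios carry exact binomial (Clopper-Pearson) 95% intervals.

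The text names all 34 genes, PHO23 and, of each other list, up to 4 genes with the largest fold in the comparison. CUE5, RAD6, RAD23, RPN14, GAP1, MFA1 and the genes sharing a PACE match were named after their values were seen. Members and lists were chosen with earlier results of these data known. The alternatives tried were a pseudocount of 0.1 or 5, a filter at 30 RPKM or none, 4 scalings, means in place of medians, and other motif forms. The fold and depth procedures were tested on simulated read numbers, and the interval formula on a fixed pair of numbers. The simulated reads were whole by design, unlike most deposited low values, so the test does not check the depth estimated here. Work was done in python 3.11.15 with numpy 2.4.6, pandas 2.3.3, scipy 1.17.1 and matplotlib 3.10.9.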

Additional observations from a re-analysis of the deposited data

Results flagged for a closer look

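These results stood out because a fold had opposite signs in the 2 genotypes or conditions compared, with both counting intervals off a ratio of 1. Each group held 1 library, so none of the differences was tested. PUP1 had a starvation fold of 0.20 in pho23∆ and -0.15 in WT, a difference of 0.35. By this rule the genotype fold, pho23∆ over WT, was flagged as below 0 in starved and above 0 in growing cells for 5 genes. Other members with these signs had at least 1 interval that held 1. For PRE3 it was -0.13 and 0.16, a starved-minus-growing difference of -0.29. For PRE2 it was -0.10 and 0.22 (-0.32), for RPT2 -0.21 and 0.08 (-0.29) and for RPN7 -0.15 and 0.11 (-0.27). RPN4 was at -0.20 and 0.27, a difference of -0.47. The signs depend on the scale of the libraries. With median-of-ratios scaling PUP1 was at -0.13 in pho23∆ and -0.68 in WT, PRE2 at 0.00 in starved and 0.12 in growing cells, and RPT2 at -0.11 and -0.02, so none of these kept opposite signs. With equal sums PUP1 was at 0.37 and 0.16. PRE3, RPN7 and RPN4 kept opposite signs in all 4 scalings, with differences of -0.09, -0.07 and -0.28 under median of ratios.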

How the results depend on the processing

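No paired analysis was possible because each group holds 1 library, and no replicate could be left out. Pseudocounts and filters on low values moved no median or count of the 33 subunits beyond the counting error or by more than 1.5 times. Scaling did. The values follow as median of ratios, equal sums, upper quartile, and equal sums without ribosomal proteins, the last chosen after seeing the data. The starvation median of the subunits became 0.11, 0.62, 0.27 and 0.25 in pho23∆ (0.45 as deposited) and 0.05, 0.89, 0.30 and 0.30 in WT (0.58). The number at 1.5-fold or more became 1, 17, 3 and 3 in pho23∆ (9) and 2, 28, 5 and 5 in WT (16), and median of ratios also put 2 below 1.5-fold in WT. The genotype median became 0.12 and -0.13 in starved cells with median of ratios and equal sums and 0.08 without ribosomal proteins (0.02), and 0.03 in growing cells with median of ratios and 0.06 with upper quartile (0.12). The difference of starvation folds became 0.08, -0.26 and -0.02 with the first 3 scalings (-0.11). A scaling divides each library by 1 factor, so it shifts the subunit median and the median over all ORFs nearly alike. The distance between both medians, 0.03 to 0.18 in all settings, could therefore change little with scaling. Core minus regulatory in starved cells was 0.01 with means in place of medians (-0.05), and the cause was not tested. Estimated reads ran from 1333 to 11865 for the subunits, with a median interval half-width of 0.053 to 0.058 on the log2 scale, so depth limits differences of a few percent.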
